A study of Homo sapiens with 7 samples.

Results

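The miR-99/100 and miR-125 families are represented by 5 microRNAs: miR-100-5p, miR-99a-5p and miR-99b-5p of the first family, and miR-125b-5p and miR-125a-5p of the second. In the table they carry the prefix of human microRNAs (hsa-miR-100-5p, hsa-miR-125b-5p). They were chosen by name from the 480 mature microRNA names in the data, and where a name stood on several hairpin rows the row with the most reads was used. All 5 were listed. The captures came from A375, a human melanoma cell line, crosslinked with 1% formaldehyde for 10 min at 24 h after seeding. In miR-CATCHv2.0, probes pull down a chosen mRNA and the small RNAs held to it are sequenced; here the mRNA was the X1 isoform of BRAF, a kinase that is often mutated in melanoma, and the probes were placed along its 3' UTR. Probes of the ODD set were used in 3 captures and probes of the EVEN set in 3 others, together called the X1 captures, and 1 capture used scrambled probes. All the libraries are of the same cell line, and no other treatment or genotype separates the groups.

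A microRNA is cut from a hairpin transcript, and one of the hairpin's arms usually ends up in Argonaute, the protein that holds the microRNA against target mRNAs. Pairing of its 5′ end, the seed, does most to choose the targets. The miR-99/100 family is known for repressing MTOR, a growth kinase, and miR-125b for repressing the mRNA of the tumour suppressor p53. The miR-125 family is related to lin-4 of Caenorhabditis elegans, which times larval development there, and genes of both families lie in clusters with members of the let-7 family.

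The mature sequences from RefSeq (GRCh38.p14) show which members share a seed. Capitals mark the seed, bases 2 to 8 counted from the 5′ end, and each sequence runs 5′ to 3′. The first 3 are the miR-99/100 family.
miR-100-5p: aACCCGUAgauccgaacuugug
miR-99a-5p: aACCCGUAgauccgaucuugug
miR-99b-5p: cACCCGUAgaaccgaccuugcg
miR-125b-5p: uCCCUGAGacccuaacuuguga
miR-125a-5p: uCCCUGAGacccuuuaaccuguga
All 3 names that hold the first seed in RefSeq's human set are members. The second seed is shared with 1 further RefSeq name, miR-4319, which was not among the names analysed. Counted from the 5′ end, with the base of miR-100-5p first, miR-99a-5p differs from miR-100-5p by A16U, and miR-99b-5p differs from it by A1C, U11A, A16C and U21C. The opposite arms of the miR-125b hairpins are shown because, unlike the 5p arm, they tell the genes apart.
miR-125b-1-3p: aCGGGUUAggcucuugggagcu
miR-125b-2-3p: uCACAAGUcaggcucuugggac

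The members come from 3 gene clusters, each with a let-7 gene between a miR-99/100 gene and a miR-125 gene. On the minus strand of chromosome 11, miR-100-5p lies at chr11:122152275-122152296, the let-7a copy MIRLET7A2 5.7 kb from it and miR-125b-5p of MIR125B1 52.5 kb from it, at chr11:122099809-122099830. All 3 genes lie within the long noncoding RNA gene MIR100HG. On the plus strand of chromosome 19, miR-99b-5p at chr19:51692618-51692639 and miR-125a-5p at chr19:51693268-51693291 lie 0.6 kb apart, with MIRLET7E between them, within the span of SPACA6 and of the long noncoding RNA gene SPACA6-AS1. On the plus strand of chromosome 21, miR-99a-5p at chr21:16539101-16539122 and the second miR-125b gene, MIR125B2, with its 5p arm at chr21:16590253-16590274, lie 51.2 kb apart within the long noncoding RNA gene MIR99AHG, with MIRLET7C 0.7 kb from miR-99a-5p.

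Levels are in RPM, reads scaled to the same total in each library, counted over all hairpin rows, and whole reads could be recovered from them. Depth over all hairpin rows was 4049 to 35508 reads in the X1 captures and 4647 reads in the scrambled capture. On this total 1 read was worth 28.2 to 247 RPM and 215 RPM. A read that fits several hairpins can be counted on each. Over 1 row per name, depth was 3046 to 25679 reads in the X1 captures and 3479 in the scrambled capture. Intervals on single libraries are exact 95% intervals and cover counting error only. Of the pair of pigment cell markers, miR-204-5p was measured, at 1352 to 2937 RPM in the X1 captures and 861 RPM in the scrambled capture. The other, miR-211-5p, was not among the names in the data. Of 5 names listed as a melanoma X-linked cluster, only miR-509-3p was among the names in the data. It was at 0 to 215 RPM in the X1 captures and 215 RPM in the scrambled capture. Summed marker levels of other cell types (blood, leukocyte, epithelial, mesenchymal, neuronal and muscle) were at most 988 RPM in any X1 capture and at most 1291 RPM in the scrambled capture. EVEN replicate 3 and the scrambled capture had the highest p of all pairs of libraries (chi-square test of reads, p = 0.0233). They still differed beyond sampling noise at the 0.05 level. Both were shallow, at 4767 and 4647 reads, and this p falls with depth, so it does not measure likeness alone.

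miR-100-5p was the most abundant member in every library, and its scrambled level lay within the range of the X1 captures. It was read 81 to 767 times in the X1 captures and 113 times in the scrambled capture. Its level was 26428, 21601 and 20005 RPM in the ODD captures, 27012, 18079 and 24754 RPM in the EVEN captures and 24317 RPM in the scrambled capture. Of the X1 captures, 3 were above the scrambled capture and 3 below. The mean was 22980 ± 3635 RPM (SD, n = 6) over the X1 captures. Ordered by mean level over the 7 libraries, miR-100-5p was number 8 of 480 names, between miR-21-5p and miR-27b-3p. The fitted difference, X1 minus scrambled on the log2(RPM + 10) scale, was -0.10 (SE 0.30, 95% interval -0.71 to 0.51, limma adjusted p = 0.858).

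miR-99b-5p, the chromosome 19 relative with the same seed, was present in every library at a lower level. It had 6099, 2704 and 3458 RPM in the ODD captures, 3874, 3174 and 3356 RPM in the EVEN captures and 3013 RPM in the scrambled capture. ODD replicate 1 stood above the rest, and 5 of the 6 X1 captures were above the scrambled capture. The difference, X1 minus scrambled, was 0.27 (SE 0.43, interval -0.60 to 1.15, limma adjusted p = 0.701). miR-100-5p made up 81.25% to 88.9% of the reads of miR-100-5p and miR-99b-5p in single X1 captures, with the lowest share in ODD replicate 1, and 89.0% in the scrambled capture (exact interval 82.2% to 93.8%).

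miR-99a-5p, which differs from miR-100-5p at 1 base, had 3 reads in all, against 1878 for miR-100-5p, so its presence is uncertain. It was read 1, 2 and 0 times in the ODD captures and 0 times in each EVEN capture and in the scrambled capture. A count of 0 in the scrambled capture allows up to 646 RPM by the usual limit of 3 reads (the exact two-sided interval in the plot of levels reaches 794 RPM), so no difference between probe sets was detectable at this depth. It was too low to be tested.

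miR-125b-5p, which comes from the clusters on chromosomes 11 and 21, was below its scrambled level in every X1 capture, but the difference did not pass the test. It was read 64, 210 and 23 times in the ODD captures, 47, 63 and 32 times in the EVEN captures and 41 times in the scrambled capture. Its level was 5914, 5914 and 5680 RPM in the ODD captures, 5058, 4347 and 6713 RPM in the EVEN captures and 8823 RPM in the scrambled capture (exact interval 6339 to 11950 RPM). This placement of all 6 X1 captures held for 1 of the 4 tested members and for 22.7% of the 242 microRNAs tested. To be among the 242, a microRNA needed only 1 read in each of 3 libraries. The 22.7% is thus not a share among microRNAs read as often as miR-125b-5p. The scrambled interval overlapped those of every X1 capture except EVEN replicate 2. The mean was 5604 ± 813 RPM (SD, n = 6) in the X1 captures. The difference, X1 minus scrambled, was -0.67 (SE 0.36, interval -1.39 to 0.060). In limma's fit across all microRNAs its adjusted p was 0.660 (0.0709 unadjusted).

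miR-125a-5p, which shares the seed of miR-125b-5p, had 4713, 2535 and 1729 RPM in the ODD captures, 3121, 2553 and 2727 RPM in the EVEN captures and 3873 RPM in the scrambled capture. ODD replicate 1 was above the scrambled capture and the other 5 X1 captures were below it. The lowest value, in ODD replicate 3, rested on 7 reads. The difference, X1 minus scrambled, was -0.48 (SE 0.46, interval -1.43 to 0.46, limma adjusted p = 0.673). miR-125b-5p made up 55.7% to 76.7% of the reads of miR-125b-5p and miR-125a-5p in single X1 captures and 69.5% in the scrambled capture (exact interval 56.1% to 80.8%).

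**Figure D1:**
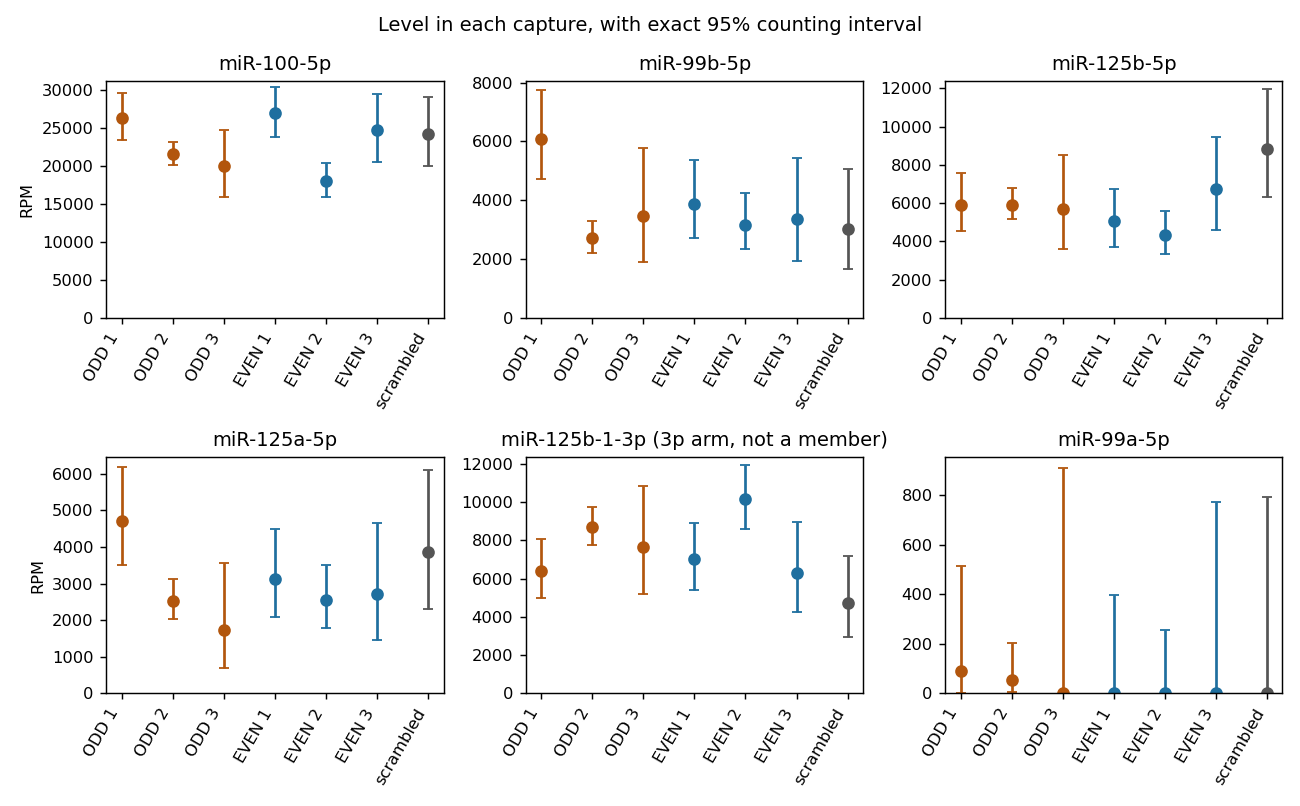
Level in RPM of the 5 members and of miR-125b-1-3p in each of the 7 libraries, with the ODD, EVEN and scrambled captures from left to right; points are single libraries and bars exact 95% counting intervals. The scrambled capture has the highest miR-125b-5p level, 8823 RPM, and the lowest miR-125b-1-3p level, 4734 RPM, while its miR-100-5p level of 24317 RPM lies among the X1 captures.

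Across the members, 0 of the 4 tested passed an adjusted p of 0.05 between X1 and scrambled probes, where 0.826% of all tested microRNAs did, and 0 had an unadjusted p under 0.05. The same counts of 0 held for ODD against scrambled and for EVEN against scrambled, each with a background of 0.826%. The median difference of the 4 members, X1 minus scrambled, was -0.29 on the log2 scale, against 0.096 over all 242 tested. As there is 1 scrambled library, its spread was taken from the other groups, and the replicates carry no statement that they came from separate cultures, so p-values may measure technical spread alone.

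No difference between ODD and EVEN probes passed the test for any of the 4 members tested. The difference, ODD minus EVEN, was -0.027 for miR-100-5p (interval -0.49 to 0.43, limma adjusted p = 0.982). It was 0.16 for miR-99b-5p (-0.50 to 0.81, limma adjusted p = 0.981). For miR-125b-5p it was 0.14 (-0.41 to 0.69, limma adjusted p = 0.981) and for miR-125a-5p -0.024 (-0.74 to 0.69, limma adjusted p = 0.984). The captures of the 2 probe sets overlapped for each of the 4 members, where 7.02% of all tested microRNAs did not overlap. That share takes in microRNAs with few reads. Of the 4, 0 were called by limma, with 0.413% called over all tested, and 0 had an unadjusted p under 0.05. Leaving out single captures turned the sign for miR-100-5p, miR-99b-5p and miR-125a-5p. Without ODD replicate 1, miR-99b-5p was at -0.18, and without ODD replicate 3, miR-125a-5p was at 0.31. For miR-125b-5p the sign did not turn, but without EVEN replicate 2 the difference was only 0.0020.

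**Figure D2:**
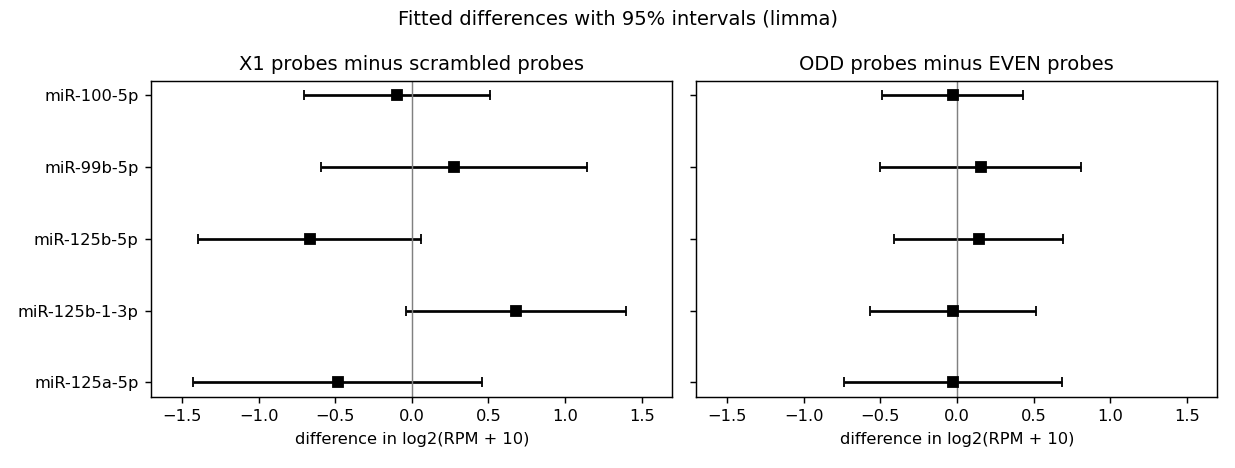
Fitted differences on the log2(RPM + 10) scale with 95% intervals from limma, X1 minus scrambled on the left and ODD minus EVEN on the right, for the 4 tested members and miR-125b-1-3p. Every interval includes 0; the X1 minus scrambled interval of miR-125b-5p runs from -1.39 to 0.060 and that of miR-125b-1-3p from -0.041 to 1.40.

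The 3p arm of the MIR125B1 hairpin lay on the other side of the scrambled capture. miR-125b-1-3p had 6376, 8702 and 7656 RPM in the ODD captures, 6995, 10144 and 6293 RPM in the EVEN captures and 4734 RPM in the scrambled capture. All 6 X1 captures were above the scrambled capture, as for 11.2% of all tested microRNAs, a share that takes in microRNAs with few reads. The difference, X1 minus scrambled, was 0.68 (SE 0.35, interval -0.041 to 1.40). In limma's fit across all microRNAs its adjusted p was 0.660 (0.0636 unadjusted). The other 3p product, miR-125b-2-3p, had 7 reads over the 7 libraries against 673 for miR-125b-1-3p.

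The share of the 5p arm among miR-125b-5p and miR-125b-1-3p reads was lower in all 6 X1 captures than in the scrambled capture. It was 48.1%, 40.5% and 42.6% in the ODD captures, 42.0%, 30.0% and 51.6% in the EVEN captures and 65.1% in the scrambled capture. The scrambled share, from 63 reads, had an exact interval of 52.0% to 76.7%, which overlapped those of ODD replicates 1 and 3 and EVEN replicate 3. On the log2 scale the 5p to 3p ratio averaged -0.45 ± 0.45 in the X1 captures (SD, n = 6) and was 0.90 in the scrambled capture. Among 9 hairpins with both arms read in all libraries, the scrambled ratio was above all X1 captures for this 1, or 11.1%, and outside their range for 3, or 33.3%. The comparison was chosen after its values were seen, and 1 library against 6 cannot reach a one-sided p below 0.143. Between probe sets the ratio differed by 0.17, ODD minus EVEN (exact permutation test, two-sided p = 0.8, n = 3 each).

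A read of miR-125b-5p fits both MIR125B1 and MIR125B2, and the table held 480 reads on the first gene's row and 475 on the other, summed over the libraries. The rows held nearly equal reads in each library, so summing them can count the same read on both. Summed in that way, the 5p reads exceeded those of miR-125b-1-3p in every capture except EVEN replicate 2. Taken from the first gene's row alone, they exceeded them only in EVEN replicate 3 and the scrambled capture. The difference in the ratio, X1 minus scrambled, was -1.35 as computed and between -1.37 and -1.34 under the alternative ways of counting. The replicate 3 captures share a description number, 12, with the scrambled capture, and within it the 5p shares were 42.6% (ODD) and 51.6% (EVEN) against 65.1% (scrambled).

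**Figure D3:**
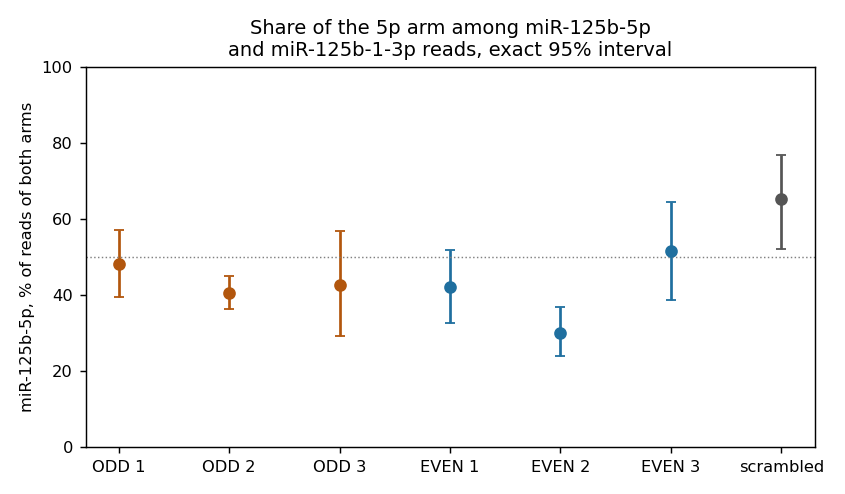
Share of miR-125b-5p among the reads of miR-125b-5p and miR-125b-1-3p in each library, in percent, with exact 95% intervals; ODD, EVEN and scrambled captures run from left to right and the dotted line marks equal arms. The X1 captures lie between 30.0% and 51.6% and the scrambled capture at 65.1%.

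For the other members with both arms listed, most reads were of the 5p arm. For miR-100 the 5p share was 98.1% to 99.6% in single X1 captures and 96.6% in the scrambled capture (exact interval 91.5% to 99.1%). The scrambled ratio of its arms was thus below that of all 6 X1 captures, opposite to the miR-125b hairpin. The difference in the log2 ratio, X1 minus scrambled, was 1.77, the largest of the 9 hairpins and ahead of -1.35 for miR-125b, and its 3p arm had 4 scrambled reads and 1 to 7 reads in single X1 captures. For miR-125a the 5p share was 86.0% to 96.8% in single X1 captures and 90.0% in the scrambled capture. For miR-99b it was 93.0% to 100% in single X1 captures and 100% in the scrambled capture. Of the opposite arms, 4 were tested between X1 and scrambled probes and 0 were called, where 0.826% of all tested microRNAs were.

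By cluster, the chromosome 11 genes gave most of the reads and those of chromosome 21 almost none that could be assigned to them. Summed over the 7 libraries, miR-100-5p had 1878 reads and miR-99b-5p 288, against 3 for miR-99a-5p. let-7a-5p, which also comes from genes on chromosomes 9 and 22, averaged 43498 ± 7692 RPM in the X1 captures (SD, n = 6) and 37659 RPM in the scrambled capture. let-7e-5p had 45, 300 and 15 reads in the ODD captures, 47, 81 and 11 in the EVEN captures and 18 in the scrambled capture. let-7c-5p, the chromosome 21 member, had 10, 16 and 23 reads in the ODD captures, 5, 11 and 0 in the EVEN captures and 2 in the scrambled capture. It differs from let-7a-5p by A19G, with the base of let-7a-5p first and positions counted from the 5′ end, so counts of the scarcer let-7c-5p are uncertain. Of these 3 let-7 names, 0 were called in any comparison, where 0.826% of all tested microRNAs were called against scrambled probes and 0.413% between probe sets. For let-7c-5p the difference, ODD minus EVEN, was 3.06 (interval 0.84 to 5.28, limma adjusted p = 0.883, 0.0083 unadjusted). Over all 242 tested, 5 microRNAs higher and 6 lower in ODD had an unadjusted p under 0.05. Its level was 5680 RPM in ODD replicate 3, against 924 and 451 RPM in the other ODD captures. Without EVEN replicate 1 or without EVEN replicate 2, let-7c-5p was called in ODD minus EVEN. EVEN replicate 3, with 0 reads, is then 1 of the remaining EVEN captures.

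**Figure D4:**
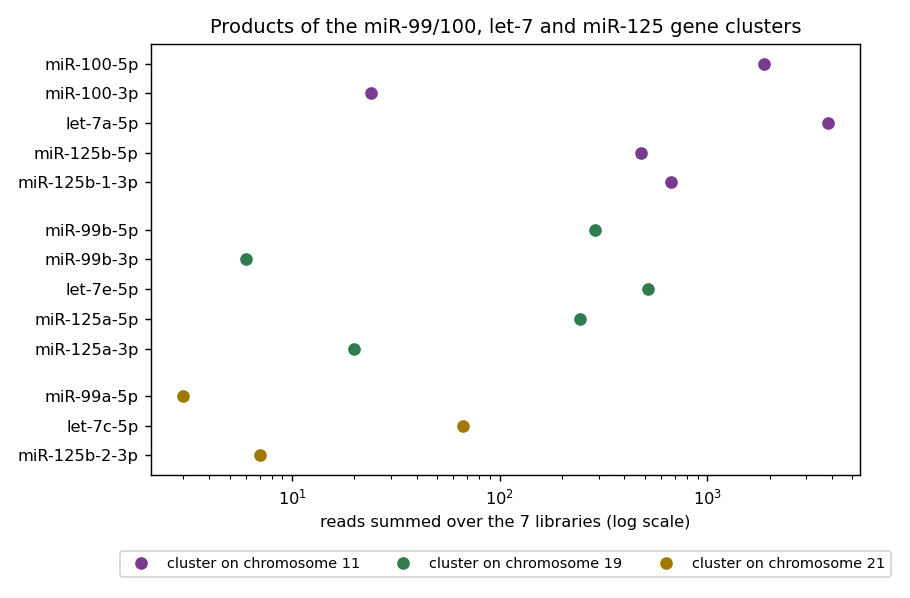
Reads summed over the 7 libraries, on a log scale, for each listed product of the clusters on chromosomes 11, 19 and 21. On the chromosome 11 cluster let-7a-5p has 3812 reads, which its genes on other chromosomes share, and miR-100-5p has 1878, while miR-99a-5p of chromosome 21 has 3.

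Ratios between cluster mates do not depend on the scaling of a library. On the log2 scale, miR-100-5p over miR-125b-5p was 2.16, 1.87 and 1.82 in the ODD captures, 2.42, 2.06 and 1.88 in the EVEN captures and 1.46 in the scrambled capture. It averaged 2.03 ± 0.23 over the X1 captures (SD, n = 6), and the scrambled value was below all of them. For miR-99b-5p over miR-125a-5p the log2 ratio was 0.37, 0.093 and 1.00 in the ODD captures, 0.31, 0.31 and 0.30 in the EVEN captures and -0.36 in the scrambled capture. The scrambled value was outside the X1 range for 4 of the 6 ratios examined, and for 37.3% of the ratios of all pairs of microRNAs averaging at least 1000 RPM. The 4 were the 2 above, the miR-125b arm ratio and miR-100-5p over miR-99b-5p. For the last, the scrambled value was 3.013 and the X1 maximum 2.998. The 6 ratios reuse the same few microRNAs, so they are not independent and their count cannot be read against the 37.3%. Between probe sets the log2 ratio of miR-100-5p to miR-125b-5p differed by -0.17, ODD minus EVEN (exact permutation test, two-sided p = 0.5, 0.8 after adjustment over 6 ratios; the smallest p possible is 0.1).

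**Figure D5:**
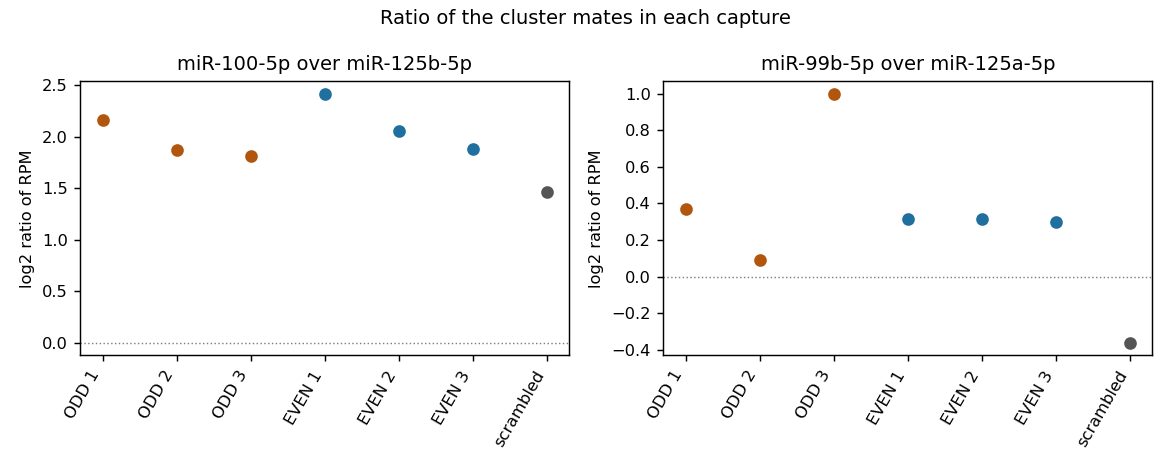
Log2 ratio of RPM between cluster mates in each library, miR-100-5p over miR-125b-5p on the left and miR-99b-5p over miR-125a-5p on the right; points are single libraries, with ODD, EVEN and scrambled captures from left to right. The scrambled capture is lowest in both, at 1.46 and -0.36.

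Together the members took 4.32%, 3.28% and 3.09% of the RPM total in the ODD captures, 3.91%, 2.82% and 3.75% in the EVEN captures and 4.0% in the scrambled capture. The scrambled share lay inside the range of the X1 captures. That total counts all hairpin rows while each member was counted on 1 row, so shares over 1 row per name would be higher. The profile most like that of miR-100-5p over the 7 libraries, by the root mean square difference of centred log2(RPM + 10) among 67 microRNAs averaging at least 1000 RPM, was that of miR-92a-3p at 0.158, against a median of 0.432. For miR-99b-5p it was miR-30e-5p (0.146), for miR-125b-5p miR-10a-5p (0.160) and for miR-125a-5p miR-192-5p (0.247). miR-10a-5p, of the related miR-10 family, averaged 15481 ± 2764 RPM in the X1 captures (SD, n = 6) and 22595 RPM in the scrambled capture.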

How the data were processed

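Small RNA from 7 miR-CATCHv2.0 captures was analysed. The submitters' processing notes name CASAVA 1.8 and cutadapt 1.2.1. Which aligner, counting rule and build were used is not given in the sources used here. RPM values were what the authors deposited, for 498 rows of a hairpin and a mature name; all values were whole multiples of 1 read (tolerance 1e-06), which gave the reads. No count model was run. Each of the 480 names was taken from its highest row. Differences were fitted on log2(RPM + 10) with limma 3.58.1 in R 4.3.3 (one mean per group, eBayes with a trend, Benjamini-Hochberg over all 242 microRNAs reaching 10 RPM in at least 3 libraries, two-sided, 0.05). A single read was worth more than 10 RPM in every library, so 1 read in each of 3 libraries met this filter. Fold changes on the log2(RPM + 10) scale understate changes of low microRNAs. The fit had 4 residual degrees of freedom, all from ODD and EVEN captures. To these eBayes added 28.6 prior degrees of freedom, from the spread over all 242 microRNAs. The limma intervals and p-values thus rest largely on that pooled spread. Named microRNAs were the members, their opposite arms, cluster mates and nearest profiles. Members and lists were chosen with earlier results of these data known. Alternatives covered pseudocount, filter, scaling, trend, replicate block, row choice and left-out captures. The fitting was tried on simulated libraries with counting noise only, for ODD minus EVEN. This trial did not cover spread between captures or the comparisons with the scrambled capture. Sequences and positions are from RefSeq, matching 5 of 5 members and 406 of 480 names.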

Additional observations from a re-analysis of the deposited data

Results flagged for a closer look

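Each of 22 values was examined over the 6 X1 captures, ODD and EVEN together, for a capture set apart from the rest (Dixon's test), and 3 stood out; chance gives about 1 in 20. miR-99b-5p was at 6099 RPM in ODD replicate 1, above the other captures. let-7c-5p was at 5680 RPM in ODD replicate 3. miR-10a-5p was at 20978 RPM in EVEN replicate 3, near the 22595 RPM of the scrambled capture.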

How the results depend on the processing

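In all 4 comparisons 0 members were called under every alternative run. edgeR and DESeq2, planned on recovered reads, were not run. For X1 minus scrambled, each of the 4 members, miR-125b-1-3p and miR-100-3p kept its direction under every alternative; leaving out single captures gave -0.16 to -0.011 for miR-100-5p, 0.11 to 0.40 for miR-99b-5p, -0.75 to -0.60 for miR-125b-5p and -0.68 to -0.32 for miR-125a-5p. The values nearest 0 came without EVEN replicate 2 for miR-100-5p and miR-125b-5p, without ODD replicate 1 for miR-99b-5p and without ODD replicate 3 for miR-125a-5p. The order of the miR-125 members turned with the replicate block, -0.83 for miR-125a-5p and -0.51 for miR-125b-5p, and without ODD replicate 1. For EVEN minus scrambled, miR-100-5p ranged from -0.20 to 0.089 with single captures left out and was above 0 without EVEN replicate 2. For ODD minus EVEN, leaving out single captures gave -0.20 to 0.090 for miR-100-5p, -0.18 to 0.41 for miR-99b-5p, -0.41 to 0.31 for miR-125a-5p, -0.16 to 0.18 for miR-125b-1-3p and -0.18 to 0.48 for the miR-125b arm ratio, so these have no settled sign. Quantile scaling turned miR-125b-5p to -0.068 and miR-125b-1-3p to 0.012; the cause was not tested.

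Counts over all microRNAs moved more. Against scrambled probes 2 were called for X1, ODD and EVEN; without a filter these were 12, 11 and 12, with quantile scaling 1, 0 and 0, with the replicate block 0 each, and 2 to 3 with single captures left out. For ODD, a pseudocount of 100 or no trend gave 0. For ODD minus EVEN 1 was called; it was 0 with a pseudocount of 1, no filter, a filter of 100 RPM on the mean, quantile scaling, the replicate block or RPM over 1 row per name, 3 with no trend, and 0 to 3 with single captures left out. Over the 242 tested microRNAs, deviations of same-numbered ODD and EVEN captures had correlations of -0.044, 0.072 and 0.019. Counting noise of microRNAs with few reads pulls such correlations toward 0, so they cannot show that same-numbered captures are unpaired. The main fit did not treat the replicate numbers as pairs, and the replicate block was run as an alternative. let-7c-5p was called in ODD minus EVEN without EVEN replicate 1 or EVEN replicate 2.

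RPM over 1 row per name raised levels, for miR-100-5p to 30968 (ODD), 32079 (EVEN) and 32481 RPM (scrambled). Summing hairpin rows, which can count the same read on both, gave 11562 (ODD), 10722 (EVEN) and 17646 RPM (scrambled) for miR-125b-5p. Quantile scaling moved the median of all microRNAs by -0.10 for EVEN minus scrambled. With 1 scrambled library and 4049 to 35508 reads per X1 capture over all hairpin rows, differences of low members could not be resolved.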
